A study of Mus musculus with 22 samples.

Results

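A set of 9 transcripts that mark B cells and plasma cells was followed across every array of a study of mouse ileum and colon. They were Cd79a, Cd79b, Blnk, Ms4a1, Cr2, Fcer2a, Cxcr5, Pou2af1 and Tnfrsf17, and they were taken by gene name from the array files, 9 of the 27670 gene names with values. The files named 8 of them directly. Cxcr5 stood there under its older name Blr1 and was found through its transcript accession. The 9 genes were read by 11 probes, since Cr2 and Ms4a1 had 2 each.

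B cells recognise antigen through a surface immunoglobulin that signals by way of the paired chains CD79A and CD79B, and the adaptor BLNK carries that signal to the enzymes downstream. In the gut wall, B cells gather in Peyer's patches and in smaller isolated lymphoid follicles, which form patches rather than an even layer. CXCR5 brings them into follicles along the chemokine CXCL13. Plasma cells, the antibody-secreting descendants of B cells, lie scattered through the lamina propria, have switched off much of the B cell programme and carry the survival receptor BCMA, the product of Tnfrsf17.

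The series held 22 single-colour arrays of total RNA from whole intestinal tissue of male C57BL/6 mice on chow. Young mice were 6 to 8 weeks and aged mice 24 months old. The controls are labelled flox and the mutants SIRT1 iKO, in a study of the deacetylase SIRT1 in the intestine. Ileum came from 4 young flox, 4 young iKO, 3 aged flox and 4 aged iKO samples. Colon came from aged mice alone, with 3 flox and 4 iKO samples. The labels do not give the promoter that drove the deletion, the deleted part of Sirt1, or whether a sampled segment held a Peyer's patch. They number the arrays of a group without tying a number to a mouse, so p-values measure the spread between these samples.

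The sequences of 3 probes are shown first because their signal decides how a marker can be read: the pair for Cr2, which disagreed with each other, and the probe for Cd79a, which was dim. All letters are 5′ to 3′ as deposited, and the array's own positions are on build mm7.
Cr2 A_52_P490788, chr1:194717651-194717710, minus strand: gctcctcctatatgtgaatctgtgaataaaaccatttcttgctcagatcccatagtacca
Cr2 A_51_P208525, chr1:194695473-194695532, minus strand: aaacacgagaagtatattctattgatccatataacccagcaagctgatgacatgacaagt
Cd79a A_52_P651316, chr7:21688822-21689079, plus strand: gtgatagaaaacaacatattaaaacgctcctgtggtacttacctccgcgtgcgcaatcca
The Cr2 probes started 22178 bases apart on the genome. The 60 bases of the Cd79a probe covered 258 bases of genome by the array's coordinates.

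Promoters are shown for members with a match to a B cell factor motif, to set beside the levels given later. Of the 9 members, 6 had an entry in the RefSeq promoter table of build GRCm38.p6: Cd79a, Blnk, Pou2af1, Cr2, Fcer2a and Tnfrsf17. The 250 bases before each transcription start were searched on both strands for ATGCAAAT, the octamer bound by OCT factors with the coactivator that Pou2af1 encodes. They were also searched for the palindromic EBF1 motif in its full form and for its core CCCNNGGG, which lies inside the full form, and for GAGGAA, the core bound by PU.1 and SPI-B. Capitals mark the matches, and each lay on the strand opposite to the one printed.
Blnk, octamer, chr19:40994222-40994471, minus strand: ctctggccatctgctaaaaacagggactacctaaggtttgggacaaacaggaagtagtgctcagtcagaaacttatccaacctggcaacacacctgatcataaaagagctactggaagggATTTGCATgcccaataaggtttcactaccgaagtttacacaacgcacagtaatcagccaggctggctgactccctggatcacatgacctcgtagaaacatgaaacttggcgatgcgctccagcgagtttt
Cd79a, PU.1 and SPI-B core, chr7:24897247-24897496, plus strand: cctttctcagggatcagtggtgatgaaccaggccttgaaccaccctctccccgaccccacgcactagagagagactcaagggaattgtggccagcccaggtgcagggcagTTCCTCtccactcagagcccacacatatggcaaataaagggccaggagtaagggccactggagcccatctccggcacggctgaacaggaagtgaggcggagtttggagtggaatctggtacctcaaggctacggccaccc
Tnfrsf17, PU.1 and SPI-B core, chr16:11313559-11313808, plus strand: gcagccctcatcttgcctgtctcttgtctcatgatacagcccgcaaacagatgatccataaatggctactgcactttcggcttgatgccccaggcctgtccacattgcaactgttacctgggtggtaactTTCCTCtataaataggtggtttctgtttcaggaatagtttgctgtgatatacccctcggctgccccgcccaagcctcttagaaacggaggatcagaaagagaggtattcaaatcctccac
The octamer began 130 bases before the start of Blnk, and 1 of 6 members held it against 1.6% of 32851 promoter windows of the same length. The PU.1 core began 140 bases before the start of Cd79a and 120 before that of Tnfrsf17, 2 of 6 members against 23.3% of windows. Neither EBF1 form had an exact match in these 6 members, and they occurred in 0.779% and 11.8% of all windows. Sites that depart from these letters were not searched for, so a lack of EBF1 sites is not shown. These matches describe letters in a window and show no binding.

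Levels are given as the log2 signal after each array was centred on its own 75th percentile, so a level of 0 equals that percentile and 1 unit is a doubling. They compare arrays for 1 probe and do not rank one gene above another. The scanner software marked each spot as well above background or not, and 49.8% to 61.5% of spots on ileum arrays and 70.45% to 79.7% on colon arrays were so marked. Sirt1 was read by 1 probe whose place relative to the deletion is not known. It was between 0.60 and 1.19 on young flox, 0.64 and 0.75 on young iKO, 0.59 and 1.09 on aged flox and 0.28 and 0.39 on aged iKO ileum arrays. In the colon it was 0.76 to 0.79 in flox and 0.34 to 0.65 in iKO. A list of 5 ileum markers had a mean level of 5.27 to 6.65 on ileum arrays and -1.12 to 0.42 on colon arrays. On aged ileum flox 1 and aged ileum iKO 2, however, the mean of 5 colon markers was 2.18 and 1.85, against -2.79 to -1.63 on the other 13 ileum arrays and 4.27 to 5.23 in the colon. Results of the members that involve these arrays are therefore also given without them where that changed a call. Genes of the other lists are not given without them, so their calls between ages and tissues were not checked in this way.

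A set of 3 ileum arrays stood apart in these transcripts: young iKO 4, aged iKO 1 and aged iKO 4 were the highest of 15 for 6 of the 9 members, namely Cd79a, Cd79b, Ms4a1, Pou2af1, Fcer2a and Cxcr5. Of all 27670 genes on the array, 431 (1.56%) had the same arrays on top. Among the members and genes tested in the ileum, it was 3 of 5 members and 343 of 15488 genes (2.21%). Since the arrays are named for the members' own levels, that count is a description and was not tested. All 3 are iKO arrays, 3 of the 8 from iKO ileum. By the choice of these genes, none of the other 5 iKO arrays could be among their 3 highest. For Cd79a, Ms4a1 and Fcer2a, those that lay below every ileum flox array were not well above background. For Cd79b, which was well above background throughout, aged iKO 3 was below every ileum flox array, at -0.41 against -0.36 for the lowest. The arrays that stood apart sat on slides 3, 4 and 4, at positions 2, 3 and 4. In whole tissue, more cells of a type and more RNA per cell cannot be told apart.

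**Figure D1:**
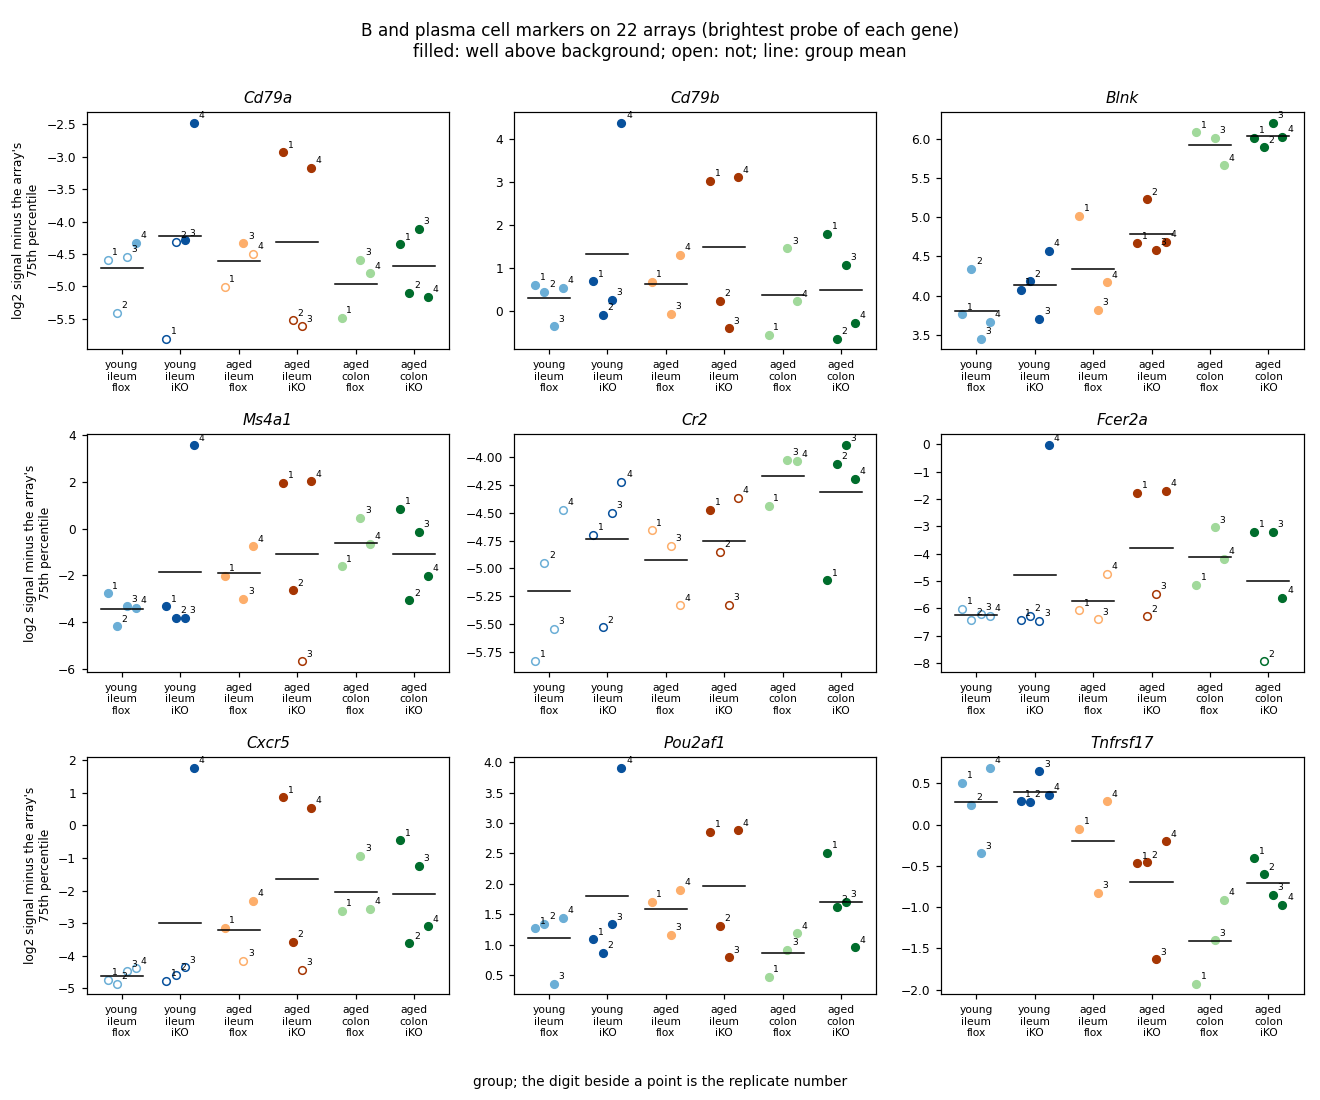
Each panel plots 1 member's log2 level (log2 signal minus the 75th percentile of the array) on all 22 arrays by group, with the replicate number beside each point, the group mean as a line, and open points where the spot was not well above background. Young ileum iKO 4, aged ileum iKO 1 and aged ileum iKO 4 lie above the other ileum arrays for Cd79a, Cd79b, Ms4a1, Fcer2a, Cxcr5 and Pou2af1, but not for Blnk, Cr2 or Tnfrsf17.

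Of the antigen receptor chains, Cd79b was measured on every array. Its level in the ileum was 0.60, 0.45, -0.36 and 0.54 on young flox arrays 1 to 4 and 0.69, -0.08, 0.26 and 4.38 on young iKO arrays 1 to 4. On aged flox arrays 1, 3 and 4 it was 0.68, -0.07 and 1.31, and on aged iKO arrays 1 to 4 it was 3.03, 0.23, -0.41 and 3.11. Young iKO 4 was thus above the highest other young array by more than 3 log2 units. Aged iKO 1 and 4 were above every ileum flox array. Young iKO 2 and 3 lay within the young flox range, and young iKO 1, at 0.69, lay narrowly above its highest array, at 0.60. Aged iKO 2 lay within the aged flox range and aged iKO 3 below it. Cd79a, the partner of Cd79b, was well above background on only 6 of 15 ileum arrays. It was highest on young iKO 4, aged iKO 1 and aged iKO 4, at -2.47, -2.93 and -3.17. On the other 12 it was between -5.81 and -4.29.

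Blnk, the adaptor of the same pathway, was well above background on all arrays and did not share this pattern. It was 3.76, 4.34, 3.45 and 3.66 on young flox and 4.07, 4.18, 3.70 and 4.57 on young iKO arrays. On aged flox arrays it was 5.02, 3.82 and 4.17, and on aged iKO arrays 4.67, 5.23, 4.58 and 4.69. Its highest ileum arrays were aged iKO 2 and aged flox 1, the 2 on which colon markers were raised. It spanned 1.78 log2 units over the ileum, against 4.78 for Cd79b.

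Ms4a1, which encodes the surface protein CD20 of mature B cells, varied strongly between ileum arrays. It was -2.76, -4.19, -3.33 and -3.40 on young flox and -3.33, -3.81, -3.82 and 3.58 on young iKO arrays. On aged flox arrays it was -2.01, -2.99 and -0.75, and on aged iKO arrays 1.98, -2.64, -5.68 and 2.03, with iKO 3 not well above background. Aged iKO thus held both the lowest Ms4a1 array of the ileum and, after young iKO 4, the highest ones. The further probe of Ms4a1 gave the same order at the top, with 2.13 on young iKO 4, 0.59 on aged iKO 4 and 0.49 on aged iKO 1, and at most -2.28 on the other 12.

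Fcer2a, the low-affinity IgE receptor CD23 of follicular B cells, was well above background on the same 3 arrays of the ileum alone, at -0.03, -1.76 and -1.70 on young iKO 4, aged iKO 1 and aged iKO 4. On the other 12 arrays its signal was -6.46 to -4.74 and not well above background, so no fold is given. Cxcr5 was 1.76, 0.86 and 0.54 on those arrays and -4.86 to -2.31 on the rest, where 3 further arrays were well above background: aged flox 1 and 4 and aged iKO 2. No young array apart from iKO 4 reached that mark for either gene.

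The probes of Cr2, complement receptor 2 of mature B cells and follicular dendritic cells, disagreed. The brighter on average, A_52_P490788, ran from -5.84 to -4.22 in the ileum and was well above background on 1 of 15 arrays. The further probe, A_51_P208525, was -0.69, -2.12 and -1.98 on young iKO 4, aged iKO 1 and aged iKO 4, well above background there and nowhere else in the ileum, and -6.80 to -4.87 on the other 12. Only the second therefore followed Fcer2a and Cxcr5, and the rule of taking the brightest probe selected the first. The pattern of Cr2 depends on that choice.

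**Figure D2:**
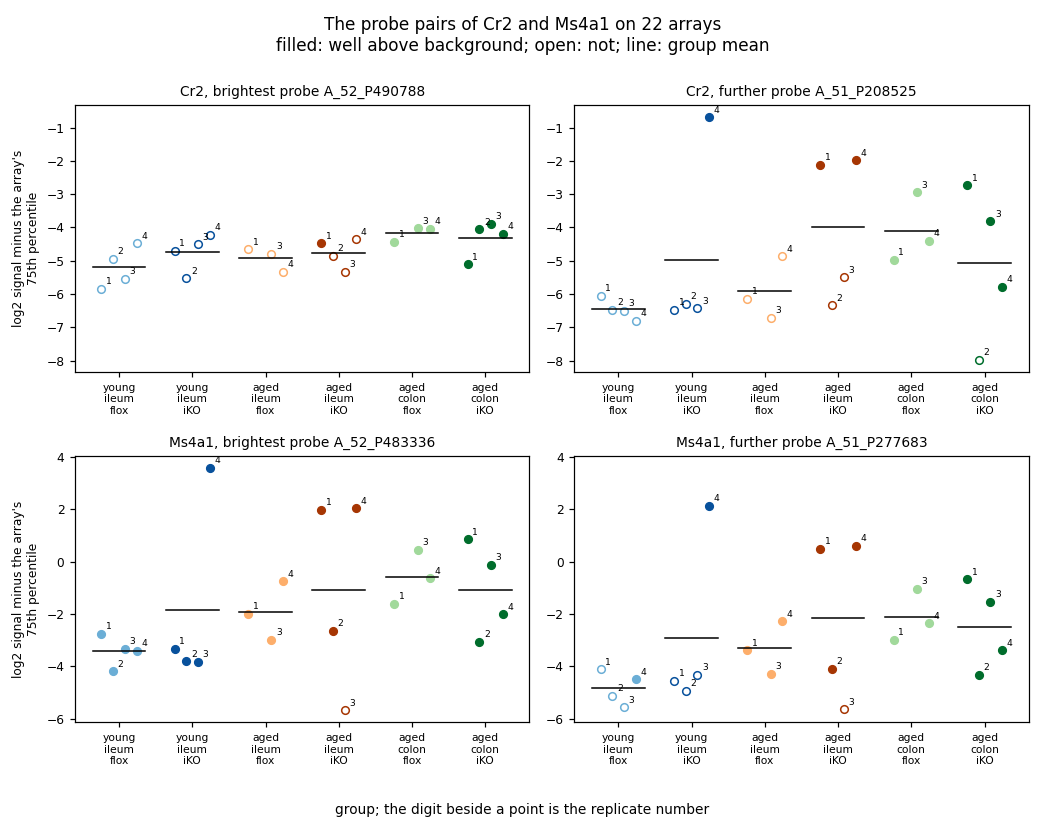
The brightest probe of Cr2 and of Ms4a1 (left) is set beside the further probe of the same gene (right) as log2 levels on all 22 arrays by group, with replicate numbers, group means as lines and open points where not well above background. Both Ms4a1 probes place the same 3 ileum arrays highest, whereas for Cr2 only the further probe does, at -0.69, -2.12 and -1.98.

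Pou2af1 encodes OBF-1, the octamer coactivator of B cells, which plasma cells also use. It was 1.27, 1.34, 0.36 and 1.44 on young flox and 1.09, 0.87, 1.33 and 3.91 on young iKO arrays. On aged flox arrays it was 1.70, 1.16 and 1.91, and on aged iKO arrays 2.86, 1.31, 0.79 and 2.88. Its top arrays were those of Ms4a1, but its range of 3.56 log2 units was narrower, and it was well above background throughout.

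Tnfrsf17 showed no such arrays. It was 0.51, 0.24, -0.35 and 0.69 on young flox and 0.28, 0.28, 0.65 and 0.36 on young iKO arrays. On aged flox arrays it was -0.05, -0.82 and 0.28, and on aged iKO arrays -0.47, -0.46, -1.64 and -0.20. Young iKO 4, the top array for 7 of the 9 members, lay between the other young iKO arrays for Tnfrsf17, and aged iKO 1 and 4 were not above every aged flox array. All 4 aged iKO arrays lay below all 4 young iKO arrays.

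Outside the arrays that stood apart, the members were only partly related. Over the other 12 ileum arrays Pearson's r was 0.86 between Cd79b and Pou2af1, 0.77 between Ms4a1 and Cxcr5 and 0.73 between Cd79b and Ms4a1. Tnfrsf17 had r = 0.63 with Cd79b and -0.05 with Cxcr5, and Blnk had r = 0.43 with Cxcr5 and -0.37 with Tnfrsf17. These values describe 12 arrays of 4 groups that share slides and age differences, and dim members add noise to them.

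Genes of the B cell programme that are not among the 9 showed the same arrays on top. All 20 other B cell genes on the list did, including Pax5, the factor of B cell identity (an example chosen after its values were seen). Their mean level was 0.16 on young iKO 4, -1.03 on aged iKO 1 and -1.18 on aged iKO 4, against -4.26 to -3.00 on the other 12 arrays, of which aged flox 4 was highest. The same arrays led for 8 of 13 lymphoid stroma and chemokine genes, with means of 0.56, -0.31 and -0.50 against -2.55 to -1.35. The value of -1.35, on aged flox 4, and the mean on young flox 3 covered 12 of the 13 genes. Cxcl13, the follicle chemokine that CXCR5 binds, was 1.73 on young iKO 4, 0.55 on aged iKO 1 and 0.64 on aged iKO 4, and at most 0.05 elsewhere in the ileum (chosen after its values were seen). For germinal centre genes the count was 3 of 10, for antigen receptor signalling 9 of 16 and for the BAFF and APRIL system 2 of 4. It was 0 of 9 for M cell and follicle epithelium genes and 2 of 12 for plasma cell genes. Of these, 1 was the immunoglobulin heavy chain Ighm, which naive B cells also express. The mean of the plasma cell list, Ighm included, was still highest on the same arrays, at 1.91, 1.86 and 1.86 against 0.64 to 1.67.

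Markers of other cell types were read on the same arrays. T cell markers led there for 5 of 19 genes, with list means of -0.74, -0.44 and -0.78 against -2.10 to -0.95. For macrophage, adipose and pancreas, smooth muscle, epithelial, ileum and colon markers no gene had the same 3 arrays on top. Smooth muscle markers had their lowest list means there, 4.64, 4.39 and 4.58 against 4.72 to 5.40 on the other 12. Their part in the result was not tested.

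**Figure D3:**
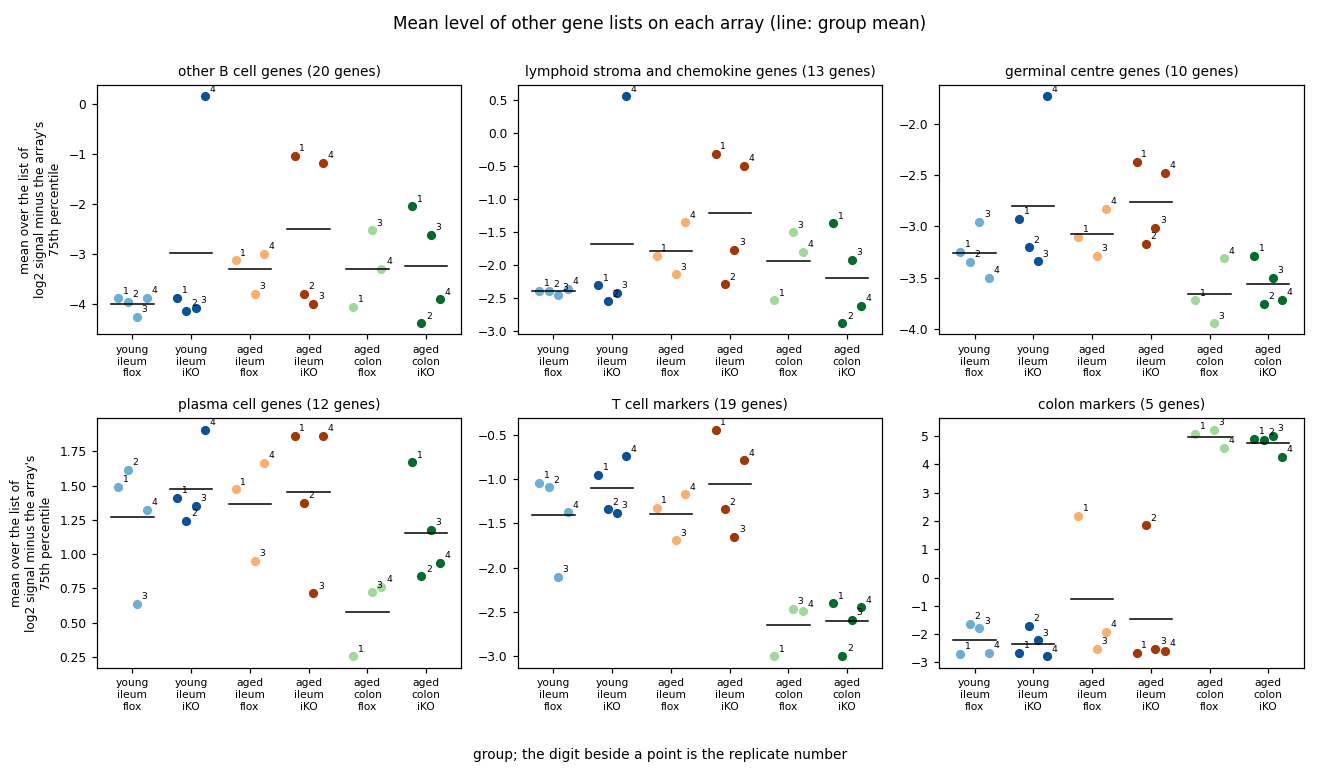
Points give the mean log2 level over each gene list on each of the 22 arrays by group, with replicate numbers and group means as lines. For lymphoid stroma and chemokine genes, the means on young ileum flox 3 and aged ileum flox 4 cover 12 of the 13 genes. Young ileum iKO 4, aged ileum iKO 1 and aged ileum iKO 4 are the highest ileum arrays for every list shown except colon markers. For plasma cell genes they are at 1.91, 1.86 and 1.86, against at most 1.67 on the other ileum arrays. Colon markers are raised on aged ileum flox 1 and aged ileum iKO 2.

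The genes most like the members were ranked by Pearson's r with the mean of the centred members over the 15 ileum arrays, among 15488 genes. They were Ighm (r = 0.995), A630001G21Rik (0.988), Fcmr (0.985), Lyl1 (0.983), Tspan32 (0.982), H2-Oa (0.98), Rasgrp3 (0.979), Chst3 (0.976), Klhl6 (0.975) and Ccr6 (0.974). These values rest largely on the 3 arrays that stood apart. Over the other 12, r was 0.946 for Ighm, 0.849 for Fcmr, the IgM Fc receptor, and 0.658 for Chst3, the lowest of the 10. Over the 7 colon arrays the genes ranked highest included Cd22 (r = 0.996), Serpinf1 (0.988), P2ry10 (0.986), Ighm (0.986), Tnfrsf13c (0.984), Btla (0.982), Cnr2 (0.982), Wdfy4 (0.981) and Hvcn1 (0.977), among 19592 genes. Ighm was the 1 gene on both lists.

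Comparing iKO with flox in the young ileum asks whether the mutation altered these transcripts at 6 to 8 weeks. None of the 5 members that could be tested passed limma, where 0.0452% of all 15488 genes were called and 641 had an unadjusted p under 0.05. A gene was tested only if some group of the fit had it well above background on each of its arrays. That kept Cd79b, Ms4a1, Blnk, Pou2af1 and Tnfrsf17 in the ileum and left out Cd79a, Cr2, Fcer2a and Cxcr5. All 5 fitted differences were positive, with a median of 0.70 against -0.01 over all genes, and none had an unadjusted p under 0.05. Ms4a1 went from -3.42 ± 0.59 (SD, n = 4) to -1.84 ± 3.63 (SD, n = 4), a difference of 1.58 ± 1.79 (SE, adjusted p = 0.999). Cd79b went from 0.31 ± 0.45 (SD, n = 4) to 1.31 ± 2.07 (SD, n = 4), a difference of 1.01 ± 0.96 (SE, adjusted p = 0.999). Both rested on 1 array: without young iKO 4 the differences were -0.23 for Ms4a1, -0.02 for Cd79b and -0.01 for Pou2af1. Tnfrsf17 differed by 0.12 ± 0.32 and Blnk by 0.33 ± 0.27 (SE). Cxcr5 and Fcer2a were well above background on 0 of 4 young flox arrays and 1 of 4 young iKO arrays, iKO 4, so no difference is given. Every young flox array sat at position 1 of its slide and every young iKO array at position 2, so genotype and position cannot be told apart in this comparison. On slide 3, where young iKO 4 sat beside young flox 3, Ms4a1 differed by 6.91, and on the other slides by -1.04, 0.85 and -0.42.

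In the aged ileum, again 0 of 5 members passed, with 0.168% of all genes called, 1849 genes at an unadjusted p under 0.05 and none of the members among them. Ms4a1 was -1.92 ± 1.12 in flox (SD, n = 3) and -1.08 ± 3.77 in iKO (SD, n = 4), a difference of 0.84 ± 1.94 (SE, adjusted p = 0.885). Cd79b differed by 0.85 ± 1.04, Pou2af1 by 0.37 ± 0.68 and Blnk by 0.45 ± 0.29, while Tnfrsf17 differed by -0.49 ± 0.34 (SE). The spread within the iKO group, 2 high arrays and 2 low ones, was wider than the difference between groups. Without aged iKO 1 the Ms4a1 difference was -0.18, and without aged iKO 4 it was -0.19. With all 3 arrays that stood apart left out, it was -2.24 and that of Cd79b -0.72, neither of them called. Of the aged ileum arrays, slide 3 held flox 1 and 4, slide 4 iKO 1 and 4 and slide 1 iKO 3. Genotype and slide can thus hardly be told apart among these arrays. Only slide 2 held both genotypes, flox 3 and iKO 2, and there Ms4a1 differed by 0.35 and Tnfrsf17 by 0.36. The change of the genotype difference with age was not called for any member (0 of 5, with 0% of genes called). The interaction was -0.73 ± 2.64 (SE) for Ms4a1 and -0.61 ± 0.47 (SE) for Tnfrsf17, and none of the members was among the 391 genes with an unadjusted p under 0.05.

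The other B cell genes were read in the same way. Of 12 tested, all 12 had a positive difference in the young and all 12 in the aged ileum, with medians of 0.83 and 0.50, and none passed. Of all genes tested, 48.1% and 53.5% were positive. The list mean was 0.16 on young iKO 4 but -4.14 to -3.88 on the other young iKO arrays, against -4.26 to -3.88 on young flox. It was -1.03 and -1.18 on aged iKO 1 and 4 but -3.80 and -3.99 on aged iKO 2 and 3, against -3.80 to -3.00 on aged flox. The smallest p in the young ileum was that of Ikzf3 (0.99 ± 0.56, adjusted p = 0.999), a factor of lymphocyte development. In the aged ileum it was that of Cd22 (2.13 ± 1.13, adjusted p = 0.471), an inhibitory co-receptor. All 16 antigen receptor signalling genes were positive at both ages with medians of 0.24 and 0.27, and none passed. Their list mean was 0.99 on young iKO 4 and 0.58 and 0.52 on aged iKO 1 and 4, and on the other 5 iKO arrays it was -0.18 to 0.03, within the -0.35 to 0.06 of ileum flox. Malt1, which links the receptor to NF-kappaB, had the smallest p at both (0.42 ± 0.14, adjusted p = 0.999, and 0.29 ± 0.15, adjusted p = 0.461). Plasma cell genes showed medians of 0.07 and 0.01, with 8 and 6 of 12 positive and none called. None of 6 germinal centre genes and none of 9 stroma and chemokine genes passed at either age, with medians of 0.29 and 0.10 and of 0.78 and 0.45.

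Ageing of the ileum was read in each genotype. In flox mice no member passed (0 of 5), where 8.54% of genes were called. Blnk differed by 0.53 ± 0.29 (adjusted p = 0.26), and by 0.19 without aged flox 1, which had raised colon markers. Pou2af1 differed by 0.49 ± 0.68 (adjusted p = 0.693) and Tnfrsf17 by -0.47 ± 0.34 (SE, adjusted p = 0.407). In iKO mice 1 of 5 members passed, Tnfrsf17, where 10.7% of genes were called. It fell from 0.39 ± 0.17 (SD, n = 4) in young to -0.69 ± 0.64 (SD, n = 4) in aged iKO ileum, a difference of -1.08 ± 0.32 (SE, adjusted p = 0.0446). The interaction given above did not pass, so a difference in this fall between genotypes is not shown. Blnk was higher by 0.66 ± 0.27 without passing (adjusted p = 0.132), by 0.92 without the 3 arrays that stood apart and by 0.51 without aged iKO 2, the other array with raised colon markers. Cd79b, Ms4a1 and Pou2af1 differed by 0.18 ± 0.96, 0.77 ± 1.79 and 0.16 ± 0.63 (SE).

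The call of Tnfrsf17 was narrow. It was lost when any of 11 of the 15 ileum arrays was left out, with adjusted p between 0.0511 and 0.124. The lowest array, aged iKO 3 at -1.64, moved the difference most, to -0.77 (adjusted p = 0.106) when it was left out. Without the 3 arrays that stood apart the difference was -1.45 (adjusted p = 0.119), and without the 2 arrays with raised colon markers -1.16 (adjusted p = 0.0746). Young ileum samples occupied positions 1 and 2 of the slides and aged ileum samples positions 3 and 4, and so position and age cannot be told apart. Among plasma cell genes in iKO mice, 6 of 12 were positive and 6 negative with a median of -0.07. None passed, and the smallest p was that of Eaf2 (-1.04 ± 0.36, adjusted p = 0.0831).

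Of the remaining lists, 1 gene passed in ileum ageing among those for lymphoid tissue. Ltbr, the lymphotoxin beta receptor of stromal cells, fell in flox by 0.61 ± 0.16 (SE, adjusted p = 0.0315), 1 of 9 stroma and chemokine genes. Its value without the 2 arrays with raised colon markers is not given. Of all genes, 556 were then called in flox ageing, against 1323 with them. No other B cell gene (0 of 12), antigen receptor signalling gene (0 of 16), germinal centre gene (0 of 6), M cell gene (0 of 7) or BAFF and APRIL gene (0 of 4) passed in either genotype. Cxcl13 was higher by 1.83 ± 0.86 in aged flox without passing (adjusted p = 0.195).

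In the colon all 9 members could be tested, and their levels varied from array to array in a graded way. Ms4a1 was -1.60, 0.46 and -0.65 on flox arrays 1, 3 and 4 and 0.85, -3.07, -0.12 and -2.01 on iKO arrays 1 to 4. Fcer2a was -5.13, -3.03 and -4.18 on flox and -3.21, -7.94, -3.19 and -5.63 on iKO arrays, not well above background on iKO 2. Cxcr5 was -2.62, -0.94 and -2.56 on flox and -0.46, -3.61, -1.25 and -3.10 on iKO arrays. For each of these genes flox 3, iKO 1 and iKO 3 were the high arrays and iKO 2 the lowest, so high and low arrays occurred in both genotypes and the groups overlapped.

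Cd79b followed nearly the same order in the colon, with -0.56, 1.46 and 0.23 on flox and 1.79, -0.64, 1.07 and -0.27 on iKO arrays. Cd79a was well above background on all 7, at -5.49, -4.59 and -4.80 on flox and -4.35, -5.10, -4.11 and -5.16 on iKO arrays. Both chains were high on iKO 1, iKO 3 and flox 3. The Cr2 probes disagreed here too: A_52_P490788 was lowest on iKO 1 (-5.11) and -4.44 to -3.89 elsewhere, whereas A_51_P208525 was highest there (-2.73), with -4.97, -2.94 and -4.39 on flox and -7.98, -3.82 and -5.79 on iKO 2, 3 and 4. Blnk kept within 0.55 log2 units, at 6.09, 6.01 and 5.66 on flox and 6.02, 5.89, 6.21 and 6.03 on iKO arrays.

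Pou2af1 and Tnfrsf17 took another order. Pou2af1 was 0.47, 0.91 and 1.18 on flox and 2.51, 1.62, 1.71 and 0.95 on iKO arrays. Tnfrsf17 was -1.93, -1.40 and -0.91 on flox and -0.41, -0.60, -0.85 and -0.97 on iKO arrays. In both, 3 of 4 iKO arrays lay above all flox arrays and iKO 4 overlapped with flox 4. The low array of the B cell surface markers, iKO 2, was above every flox array for this pair. Over the 7 colon arrays Pearson's r was 0.88 between Pou2af1 and Tnfrsf17, 0.96 between Ms4a1 and Cxcr5, 0.38 between Pou2af1 and Ms4a1 and 0.09 between Tnfrsf17 and Ms4a1, as a description of arrays that share slides and group.

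No member passed in colon iKO against flox (0 of 9), where 0.112% of 19592 genes were called and 1415 had an unadjusted p under 0.05. Tnfrsf17 was -1.41 ± 0.51 in flox (SD, n = 3) and -0.71 ± 0.25 in iKO (SD, n = 4), a difference of 0.70 ± 0.25 (SE, adjusted p = 0.581). Pou2af1 was 0.85 ± 0.36 in flox (SD, n = 3) and 1.70 ± 0.64 in iKO (SD, n = 4), a difference of 0.84 ± 0.36 (SE, adjusted p = 0.69). These were the 2 members with an unadjusted p under 0.05. Within the 3 slides that held both genotypes, Pou2af1 differed by 0.53, 0.71 and 0.49 and Tnfrsf17 by 0.06, 0.80 and 0.95. Ms4a1 differed by -0.49 ± 0.98, Fcer2a by -0.88 ± 1.21, Cxcr5 by -0.06 ± 0.84 and Cd79b by 0.11 ± 0.70 (SE). Colon flox arrays all sat at position 3 and iKO arrays at position 4, so genotype and position cannot be told apart.

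Plasma cell genes in the colon were mostly positive in iKO, without passing. Of 12 tested, 11 were positive, where 47.3% of all genes were, with a median of 0.72 against -0.01 over all genes. An unadjusted p under 0.05 was found for 7, but none passed after adjustment. Derl3, which acts in protein quality control of the endoplasmic reticulum, differed by 1.15 ± 0.29 (adjusted p = 0.367). Jchain, the joining chain of secreted IgA and IgM, differed by 0.86 ± 0.22 (adjusted p = 0.37), and Eaf2 by 0.94 ± 0.31 (SE, adjusted p = 0.519). The list mean was 0.25, 0.72 and 0.76 on flox and 1.67, 0.84, 1.18 and 0.94 on iKO arrays. The lowest iKO mean, 0.84, was thus narrowly above the highest flox mean, 0.76. How many other genes or lists separate in this way was not counted. The other B cell genes had 13 of 18 positive with a median of 0.11, and none passed.

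**Figure D4:**
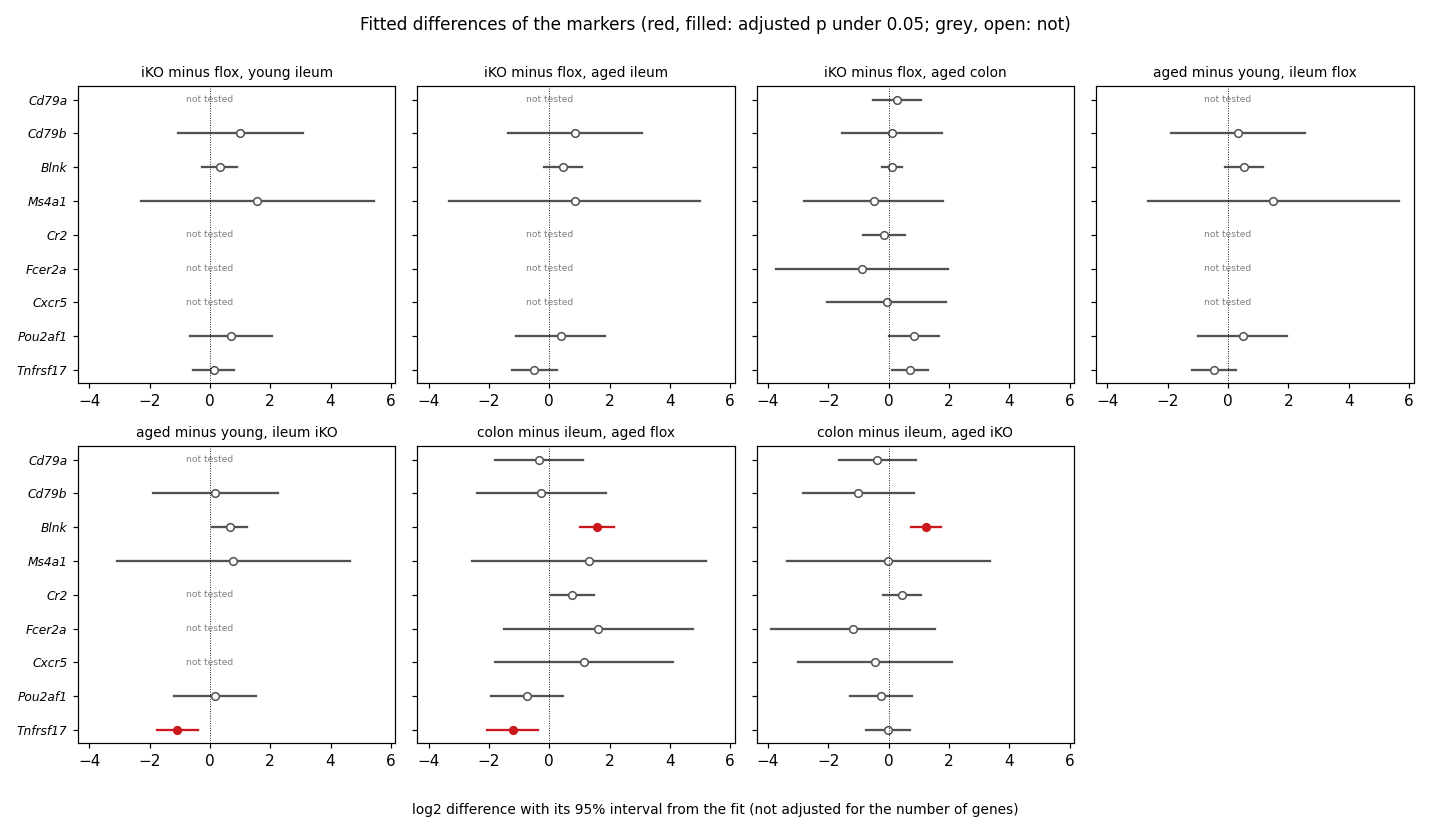
Points are fitted log2 differences of the 9 members in 7 comparisons and lines are 95% intervals from the fit, not adjusted for the number of genes. Red filled points passed at an adjusted p under 0.05: Blnk between tissues in both genotypes, Tnfrsf17 between tissues in flox and with age in iKO ileum. The intervals of Ms4a1 are the widest in the ileum comparisons, from -2.28 to 5.44 in the young one.

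Between colon and ileum of aged mice, Blnk was the member that differed in both genotypes. It rose in the colon from 4.34 ± 0.62 (SD, n = 3) to 5.92 ± 0.23 (SD, n = 3) in flox and from 4.79 ± 0.30 (SD, n = 4) to 6.04 ± 0.13 (SD, n = 4) in iKO. The differences were 1.58 ± 0.26 (SE, adjusted p = 0.000935) and 1.25 ± 0.23 (SE, adjusted p = 0.00102), or 3.0-fold and 2.37-fold. Every colon array, 5.66 at the lowest, lay above every ileum array, 5.23 at the highest. Tnfrsf17 fell in flox from -0.20 ± 0.57 (SD, n = 3) in the ileum to -1.41 ± 0.51 (SD, n = 3) in the colon, a difference of -1.22 ± 0.39 (SE, adjusted p = 0.0303). In iKO it was -0.69 ± 0.64 and -0.71 ± 0.25 (SD, n = 4 each), a difference of -0.02 ± 0.33 (SE, adjusted p = 0.971).

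These were 2 of 9 members called in flox, where 32.9% of 19643 genes were called, and 1 of 9 in iKO, where 43.6% were. A share of members at or below that of all genes is no property of the members. The difference between genotypes in the tissue contrast was 1.20 ± 0.51 for Tnfrsf17 (SE, adjusted p = 0.813), and 0 of 9 members passed it, with 0.0356% of genes called and 1178 at an unadjusted p under 0.05, 1 of them Tnfrsf17. Tnfrsf17 lost its call in flox without aged ileum flox 1 or 4 or aged colon flox 1 or 3, with adjusted p of 0.0646 to 0.113. Without the 2 ileum arrays with raised colon markers it was -1.14 (adjusted p = 0.0883), and Blnk was then 1.93 and 1.39, still called in both genotypes. Tissues were run on different slides, so tissue and array run cannot be told apart.

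For the markers that varied most between ileum arrays, no difference by tissue exceeded that spread. Ms4a1 differed by 1.32 ± 1.78 in flox and -0.01 ± 1.54 in iKO, and Cxcr5 by 1.16 ± 1.35 and -0.45 ± 1.17 (SE). Without the 3 arrays that stood apart, the iKO difference was 3.07 for Ms4a1 (adjusted p = 0.075) and 1.90 for Cxcr5 (adjusted p = 0.133). Fcer2a and Cr2 were not well above background on any aged ileum flox array and were on all 3 colon flox arrays. Neither difference was called (adjusted p = 0.415 for Fcer2a and 0.092 for Cr2). The dimmest signal marked as well above background was -4.77 to -4.10 on aged ileum flox and -6.69 to -5.88 on colon flox arrays. Unmarked signal can exceed that mark: Cxcr5 was -4.15 and unmarked on aged ileum flox 3, where the dimmest marked signal was -4.77. No fold is therefore given. Without aged colon iKO 1 the brightest Cr2 probe passed in both genotypes (adjusted p = 0.0413 and 0.0363), with its ileum signal at background on all but 1 of the 7 aged arrays, so no exact difference is given. The further Cr2 probe was higher in the colon of flox and lower in that of iKO mice, without passing in either (adjusted p = 0.349 and 0.497).

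No antigen receptor signalling gene was called higher in the colon along with Blnk. Of 16 such genes, 6 were called lower in flox mice and 8 in iKO, with 0 called higher in either. The medians were -0.66 and -0.93, against 0.08 and 0.07 over all genes. Without a call, 4 were positive in flox and 2 in iKO. Of all 19643 genes tested, 2700 were called lower and 3760 higher in flox, and 3807 lower and 4752 higher in iKO. Lyn, the kinase that starts receptor signalling, fell by 1.29 ± 0.14 in flox (adjusted p = 6.04e-05) and by 1.61 ± 0.12 in iKO (adjusted p = 2.06e-06). Pik3ap1, an adaptor for PI3 kinase, fell by 2.87 ± 0.35 (adjusted p = 0.000121) in flox and fell by 3.05 ± 0.30 (adjusted p = 1.33e-05). Plcg2, the phospholipase that BLNK recruits, fell by 1.84 ± 0.23 (adjusted p = 0.000154) and by 1.67 ± 0.20 (SE, adjusted p = 5.2e-05). Many of these genes are also used by other cell types. In the same comparison 11 of 17 T cell markers fell and 2 rose in flox, with a median of -1.18, and 12 fell and 1 rose in iKO. Of 11 macrophage markers 8 fell and 1 rose in each genotype, with medians of -1.01 and -0.93. Of 6 smooth muscle markers 2 rose in flox and 6 in iKO, and 0 fell. The part of other cell types in the fall of the signalling genes was not tested.

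Several plasma cell genes fell in the colon of flox mice along with Tnfrsf17. Of 12 tested, 6 fell and 1 rose in flox, with a median of -0.84, and 2 fell and 0 rose in iKO, with a median of -0.23. Of all genes tested, 2700 of 19643 fell in flox and 3807 in iKO, a share above that of plasma cell genes in iKO. Prdm1, the factor that directs plasma cell differentiation, fell by 1.45 ± 0.22 in flox (adjusted p = 0.00047) and by 1.54 ± 0.19 in iKO (adjusted p = 5.86e-05). Jchain fell by 1.38 ± 0.38 in flox (SE, adjusted p = 0.0152). Sdc1, which epithelial cells also express, rose by 0.36 ± 0.09 in flox (SE, adjusted p = 0.0121). Tnfsf13b, which encodes the B cell survival factor BAFF, fell by 0.95 ± 0.21 in flox (adjusted p = 0.00469) and by 0.56 ± 0.18 in iKO (SE, adjusted p = 0.0251). Of 18 other B cell genes, none passed in flox and 1 in iKO, Cd72, an inhibitory co-receptor, which fell by 1.38 ± 0.45 (SE, adjusted p = 0.0262), a smaller share than among all genes.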

How the data were processed

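Total RNA of 22 samples was labelled with Cy3, hybridised to Agilent arrays and read with Agilent Feature Extraction 9.5, per the submitters' processing notes. The deposited files hold, per the file headers, the authors' scanner intensity of 45018 spots per array, background-subtracted and processed by that software. Here each array's log2 processed signal was centred on its 75th percentile over the 43379 spots that are not controls. Spots of 1 probe were averaged, and the brightest probe over all arrays stood for a gene. Probes were named by accession (22951), symbol (6659), synonym (3109) or the file's own name (8455). Genes that some group showed well above background on each of its arrays were fitted with limma 3.58.1 in R 4.3.3 (lmFit and eBayes), in separate fits of 15 ileum, 7 colon and 14 aged arrays. P-values were adjusted over all genes by the Benjamini-Hochberg method, and a gene was called below 0.05. The fit was tested on simulated data.

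The members and gene lists were chosen with earlier results of these data known. Genes were named if they are members, are called on a list, are among the up to 3 with the smallest p on a list without calls, or are among the 10 most like the members, and others are marked. A gene that met this rule is not reported here. The labels do not say whether replicate numbers pair the samples, and the main fits did not pair them. Alternatives covered normalization, background correction, filter, probe choice, samples in the fit, variance model, slide and each array left out. The number of arrays limits the precision.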

Additional observations from a re-analysis of the deposited data

Results flagged for a closer look

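In groups of 4 arrays, a member's highest or lowest array was compared with the spread of the others by Dixon's ratio at its 95% critical value. Of 36 such groups 7 passed. Chance passes about 1 group in 20 where groups are independent, which members read on the same arrays are not. Young ileum iKO 4 accounted for 4 of the 7: its level was 3.58 for Ms4a1, where the other 3 arrays were at -3.82 to -3.33, 3.91 for Pou2af1 against 0.87 to 1.33, -0.03 (-0.0301) for Fcer2a against -6.46 to -6.27, and 1.76 for Cxcr5 against -4.77 to -4.36. For Fcer2a and Cxcr5 those other 3 arrays were not well above background, so the spread used there is that of background signal. Young ileum flox 3 was low for Cd79b, at -0.36 against 0.45 to 0.60, and for Pou2af1, at 0.356 against 1.27 to 1.44. Aged ileum iKO 2 was high for Blnk, at 5.23 against 4.58 to 4.69, and was 1 of the 2 ileum arrays with raised colon markers.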

How the results depend on the processing

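Of 725 values under other settings 717 stayed on their side of the threshold, as did 799 of 816 with 1 array left out. The sign changed in 45 and 67 of them, none of which was a called value (0). Blnk between tissues was called under every alternative run. The 1 member called between aged and young iKO ileum, Tnfrsf17, was not called (0 members) with no filter on dim probes, with probes averaged, with array weights, with only the groups in the contrast, or without the 3 arrays with the highest members or the 2 with raised colon markers, the last pair of settings chosen after seeing the data. With 1 array left out the count was 0 to 1. In colon against ileum of flox mice the count fell from 2 to 1 with only the groups in the contrast and without the 2 arrays with raised colon markers, and was 1 to 3 with 1 array left out, the highest without aged colon iKO 1. In iKO mice it was 1 to 2. With the replicate block Tnfrsf17 differed by -1.08 with age in iKO (adjusted p = 0.0211). Same-numbered ileum arrays of different groups correlated at -0.36 to 0.37 over 21 pairs, in deviations from the group mean. These pairs cannot come from 1 mouse. Aged ileum and colon arrays of the same genotype and number, which could, correlated at -0.07 to 0.14. The labels tie no number to a mouse, so the numbers were not used to pair samples and tissues were compared as unpaired. Slide as a fixed factor could not be estimated between tissues. Dim probes limit Cd79a, Cr2, Fcer2a and Cxcr5 in the ileum. The causes of these changes were not tested.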
